A study of Mus musculus with 12 samples.

Results

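The subunits of oxidative phosphorylation, the mitochondrial machinery that burns nutrients with oxygen to make ATP, were compared between livers of wild-type (WT) mice and of mice without glucagon (Gcg KO). Genes were taken by symbol: names beginning with Nduf followed by a subunit letter, the 4 Sdh genes, and names beginning with Uqcr, with Cox and a digit from 4 to 8, or with Atp5. Of 24475 genes in the table, 85 matched, and the 78 with a mean of at least 0.5 RPKM over the 12 libraries were kept. RPKM is a read number scaled by the length of the transcript and by the total of the library. The 78 genes comprised 37 of complex I, 4 of complex II, 8 of complex III, 12 of complex IV and 17 named for complex V. The rule used level and name only, but the list was chosen with earlier results of these data known.

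Complexes I and II pass electrons from NADH and succinate to ubiquinone, complex III hands them to cytochrome c, and complex IV gives them to oxygen. Complexes I, III and IV pump protons across the inner mitochondrial membrane as they do so, and complex V (ATP synthase) lets the protons back in to make ATP. Most subunits are encoded in the nucleus and imported, while a small set, the mitochondrially encoded subunits, is transcribed from mitochondrial DNA. In the liver this machinery powers the synthesis of glucose and urea, and glucagon, made by pancreatic alpha cells from the product of Gcg, stimulates both.

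The 12 libraries were made from polyadenylated RNA of whole liver of fed mice, with a strand-specific kit. There were 6 WT libraries, numbered 1 to 6, and 6 Gcg KO libraries, numbered 7 to 12. The labels name the genotype and the fed state, and no strain, sex, age, or separate animals. The tests therefore weigh only the variation among these libraries, part of which may be technical.

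The libraries held an estimated 10300000 to 15000000 reads each. Gcg was listed at 0 in all 12 libraries, WT included, so the deleted gene does not check the labels in this tissue. The hepatocyte product Alb lay between 22432 and 31956 RPKM, so the libraries carried the defining transcript of liver. Summed over 11 skeletal and heart muscle markers the level was 0.104 to 2.17 RPKM. Over 5 fat markers it was 0 to 0.184 RPKM in WT and 0.0649 to 1.13 in Gcg KO. Of these, Ucp1 and Lep were at 0 in every library, and Cidea reached 1.13 RPKM in Gcg KO 8. On the first principal component of all tested genes (27.9% of the variance), WT 6, Gcg KO 10 and Gcg KO 12 had the highest scores. They scored 17.0 to 28.8, against -21.9 to 6.99 for the other 9 libraries. WT 6, at 17.0, lay closer to Gcg KO 9 (6.99) than to Gcg KO 10 (28.3). The 3 were fixed before these scores were calculated and not picked by them. The labels give no reason to set them apart, and the choice may rest on earlier results of these same libraries. They are called the 3 libraries that stood apart, and results are also given without them. In whole tissue, fewer cells of a type and less RNA per cell cannot be told apart.

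The 5′ flanks of some members are shown because the results below turn on these genes: Cox7a2 and Atp5sl were the only members past the threshold of the test, and Ndufa11 and Ndufs4 had separate high and low levels among the libraries. Each run is the 120 bases before a start that RefSeq lists for the gene, 5′ to 3′ on the gene's strand, on GRCm38.p6. The start listed for Cox7a2 lies inside the gene's RefSeq span, which reaches further upstream, while the runs of the other 3 genes end at the edge of their spans. Capitals mark a match to NRF1 (GCGCANGCG), a motif of a factor known to bind promoters of respiratory chain genes.
Cox7a2 (chr9:79759854-79759973, minus strand): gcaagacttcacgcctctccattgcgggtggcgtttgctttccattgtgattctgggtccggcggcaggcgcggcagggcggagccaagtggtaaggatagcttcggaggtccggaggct
Atp5sl (chr7:25619294-25619413, plus strand, the upstream of 2 listed starts): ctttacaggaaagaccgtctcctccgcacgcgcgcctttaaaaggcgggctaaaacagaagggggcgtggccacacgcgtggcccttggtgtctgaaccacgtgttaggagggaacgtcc
Ndufa11 (chr17:56717642-56717761, plus strand): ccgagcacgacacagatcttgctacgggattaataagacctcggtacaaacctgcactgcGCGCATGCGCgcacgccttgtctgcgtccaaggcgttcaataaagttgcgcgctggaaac
Ndufs4 (chr13:114388095-114388214, minus strand): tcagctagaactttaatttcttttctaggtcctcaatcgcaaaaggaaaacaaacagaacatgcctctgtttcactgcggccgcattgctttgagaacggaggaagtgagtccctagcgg
The Ndufa11 flank holds the NRF1 motif on both strands, in overlapping matches 60 and 59 bases before the start, and the other runs hold no match to it.

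Over the 250 bases before and 50 after the start, 66 of the 78 members had a listed promoter. On either strand, NRF1 (GCGCANGCG) was found in 19 of the 66 (28.8%), against 7.03% of the 27025 genes with a listed promoter and 15.6% of the other tested genes. GABP (CCGGAAG) was found in 16 (24.2%, against 9.93% and 20.7%). YY1 (AAGATGGCG) was found in 8 (12.1%, against 1.64% and 3.76%), and ESRRA (TNAAGGTCA) in 3 (4.55%, against 1.43% and 0.981%). In all, 35 promoters held at least 1 of the 4 motifs and 31 held none. A match is a stretch of letters and not a measured binding site. The genes of the named factors, Nrf1, Gabpa, Yy1 and Esrra, did not pass the test between genotypes (adjusted p = 0.818, 0.944, 0.638 and 0.543).

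Members spanned a wide range of levels. The catalytic beta subunit of ATP synthase, Atp5b, was the highest with a mean of 519 RPKM, followed by Ndufa4 with 475 RPKM. Ndufa4 is named for complex I and is now assigned to complex IV. The median member stood at 109 RPKM. Complexes I, IV and V each held a member far below the rest: Ndufa4l2 at 0.892 RPKM in complex I, the muscle isoform Cox7a1 at 1.25 RPKM in complex IV, and Atp5s, a factor named for ATP synthase, at 1.997 RPKM in complex V. Ndufa4l2 was the member just inside the 0.5 RPKM bound, and Cox6b2, a testis isoform at 0.254 RPKM, was just outside it.

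The 7 genes that matched by name but not by level were Cox6b2, Cox4i2, Cox6a2, Cox7b2, Cox8b, Cox8c and Ndufs5. All but Ndufs5 are isoforms known from tissues other than liver, and none exceeded 0.635 RPKM in any library. Their liver counterparts were high in both genotypes: Cox4i1 at 352 ± 36.6 RPKM in WT against 327 ± 21.3 in Gcg KO (mean ± SD, n = 6 each here and below), Cox6a1 at 300 ± 49.8 and 276 ± 22.1, Cox6b1 at 262 ± 33.3 and 242 ± 26.0, and Cox8a at 232 ± 33.0 and 223 ± 30.1. Ndufs5, a complex I subunit used by all cells, was listed at 0.0011 to 0.0031 RPKM, so its table value is not read as its expression.

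**Figure D1:**
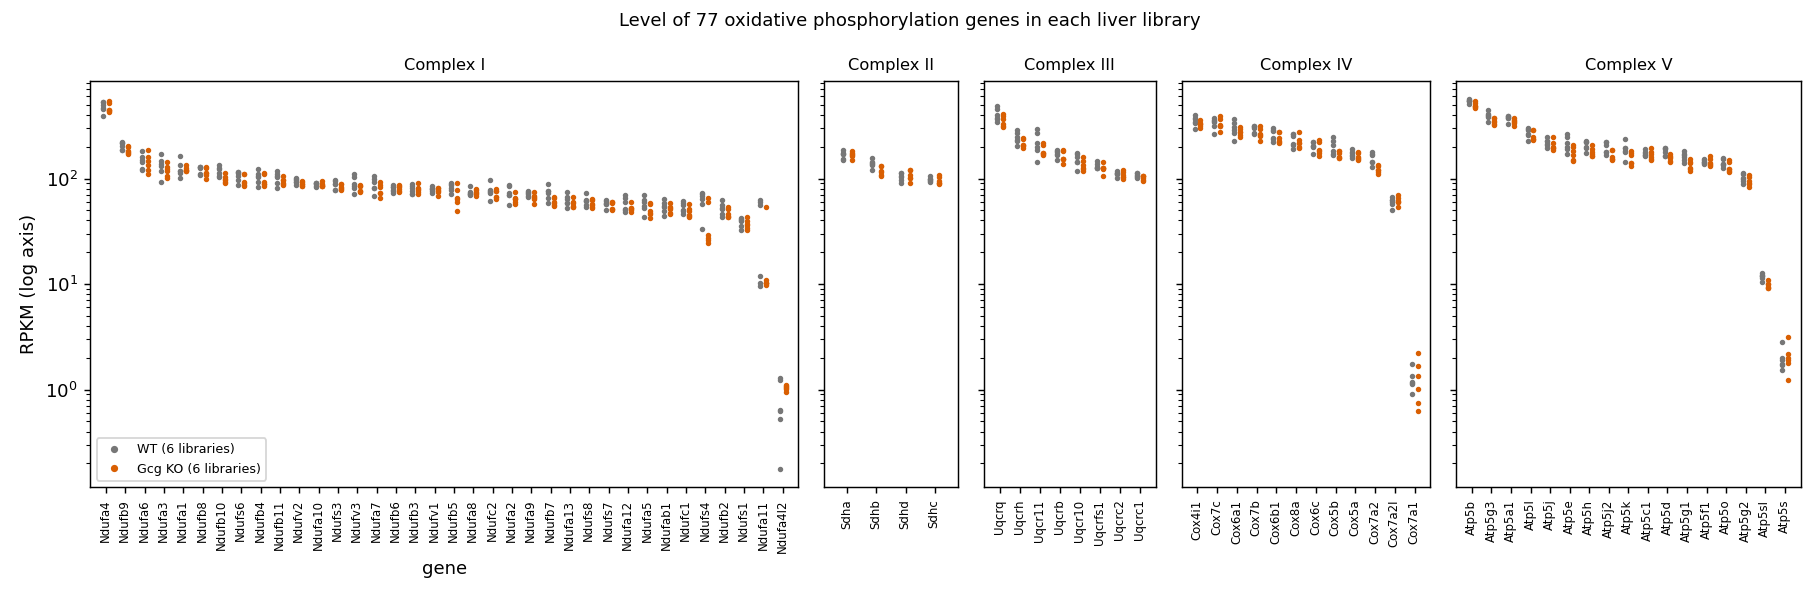
RPKM on a log axis for 77 of the 78 members (horizontal axis, ordered by level within complexes I to V), with 1 point per library (grey for WT, orange for Gcg KO). Most members lie within a narrow band in all 12 libraries, while Ndufa11 and Ndufs4 split into high and low points in both genotypes.

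The share of members that passed the test between genotypes was near that of all tested genes. Of 78 members, 2 were lower in Gcg KO and 0 were higher at an adjusted p below 0.05 (limma with Benjamini-Hochberg adjustment over 11347 tested genes). Among all tested genes 3.87% passed, 1.95% higher and 1.92% lower, so the members' 2.56% lay near the background. For 0 members did the 6 Gcg KO values lie wholly above or wholly below the 6 WT values, where 1.6% of all tested genes did so upward and 1.5% downward.

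Small differences in 1 direction were frequent. The log2 fold change (Gcg KO over WT, of RPKM + 0.5) was below 0 for 71 of 78 members (91%), against 45.7% of all tested genes. The members' median was -0.10, while all tested genes had a median of 0.01 and quartiles of -0.08 and 0.11. At an unadjusted p below 0.05, 16 members were lower (20.5%, background 6.96%) and 0 were higher (background 8.75%). The 7 members above 0 were Ndufb3, Ndufb6, Ndufa4l2, Sdha, Sdhd, Cox7a2l and Atp5s. Members were measured in the same libraries and are not independent measurements, so these counts describe the list.

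Some markers of cell types also differed. The hepatocyte enzyme Cps1 fell (-0.82 ± 0.09, adjusted p = 0.000215; 1 of 8 hepatocyte markers), as did the pancreatic enzyme Cela1 (-0.59 ± 0.12, adjusted p = 0.0179), whose 4 companion pancreas markers were at 0. The globin Hbb-bs fell (-0.51 ± 0.13, adjusted p = 0.0438), and all 5 erythroid markers were below 0 (45.7% of all tested genes). Their summed levels were 235 to 441 RPKM in WT and 239 to 305 in Gcg KO. Without WT 6, Gcg KO 10 and Gcg KO 12, Cela1 and Hbb-bs did not pass (adjusted p = 0.105 and 0.206). Hbb-bs also did not pass when any library other than WT 5 was left out (0.0665 to 0.0958). Of 3 tested cholangiocyte markers Spp1 rose (1.99 ± 0.39, adjusted p = 0.0112). Krt19 (-0.165, adjusted p = 0.788) and Sox9 (0.42, adjusted p = 0.130) did not pass. The summed levels of the list were 14.5 to 27.8 RPKM in WT and 35.2 to 249 in Gcg KO. Most of that was Spp1, at 11.2 to 25.1 and 32.2 to 246 RPKM. All 5 endothelial markers were above 0 (median 0.18) and 0 passed, with summed levels of 50.3 to 67.5 and 53.6 to 80.9 RPKM. The 5 Kupffer cell and macrophage markers were also above 0 (median 0.09). Of 5 stellate cell markers 1 was below 0 (median 0.10), and the 2 tested neutrophil markers were below 0. In these 3 lists 0 passed. The part of cell makeup in the members' levels was not tested.

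Without WT 6, Gcg KO 10 and Gcg KO 12, 77 of 78 members were below 0 (53.3% of all genes) and the median was -0.17 (all genes -0.01). In that fit 25 were lower at an unadjusted p below 0.05 (32.1%, background 8.71%). As the median deviation of members from each gene's mean (log2), Gcg KO 10 and 12 stood at 0.11 and 0.06. The other Gcg KO libraries stood at -0.14 to -0.11, and WT 6 at 0.11. Leaving out Gcg KO 10 and 12 therefore lowers the Gcg KO side, so that fit is no separate check of the direction. The unadjusted count fell to 10 without WT 4, WT 6, Gcg KO 7 or Gcg KO 9 (12.8%, background 5.86% to 7.16%). It rose to 30 without WT 5 (38.5%, background 7.33%) and 26 without Gcg KO 10 (33.3%, background 7.39%). With quantile normalization 60 members were below 0 (49.9% of all genes) with a median of -0.06.

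**Figure D2:**
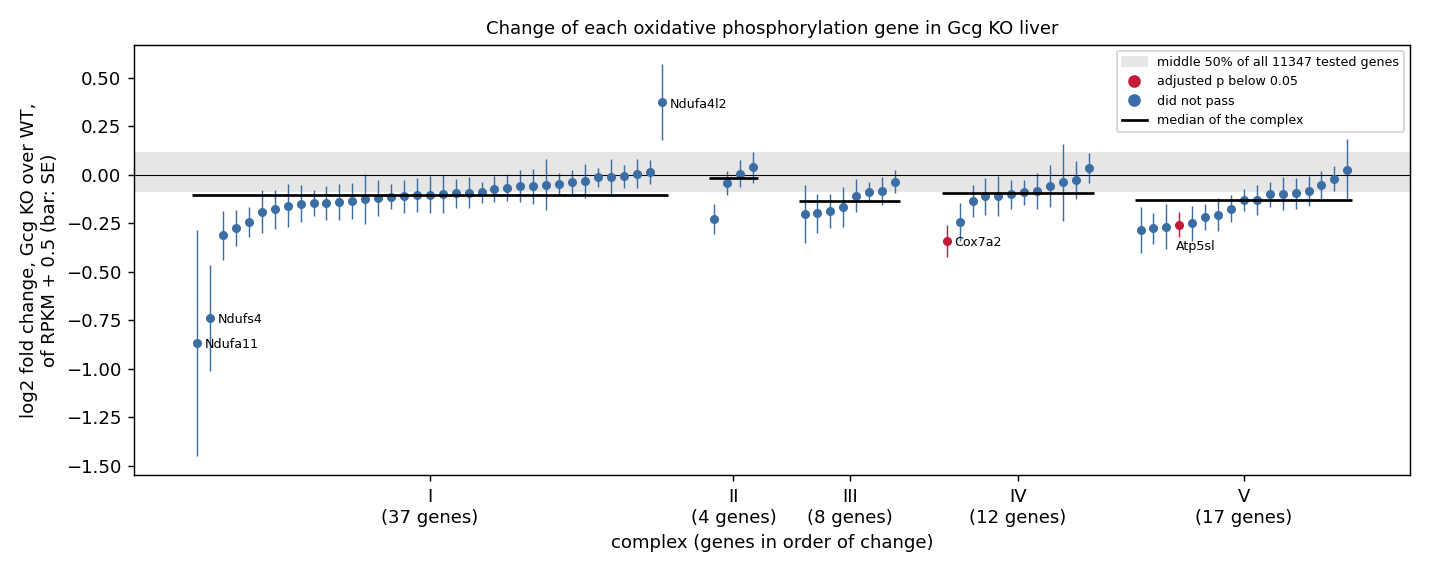
Log2 fold change of each member (Gcg KO over WT, of RPKM + 0.5, point with SE bar), ordered within each complex, with the median of the complex as a black line and the middle 50% of all tested genes as a grey band. Cox7a2 and Atp5sl, in red, passed the adjusted threshold; Ndufa11 and Ndufs4 have the most negative estimates and the widest bars of those below 0.

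In complex I, 0 of 37 subunits passed the test, 34 were below 0 (45.7% of all tested genes) and the median was -0.10. Core subunits, which carry the flavin and the iron-sulfur clusters or bind ubiquinone, had small estimates: Ndufs1, Ndufs3, Ndufs7, Ndufs8, Ndufv1 and Ndufv2 had log2 fold changes between -0.09 and -0.05. Ndufb10, Ndufb7 and Ndufb5, accessory subunits chosen after their values were seen, had lower estimates that did not pass. Ndufb10 had 118 ± 12.3 RPKM in WT against 99.0 ± 7.86 in Gcg KO, an estimate of -0.24 ± 0.08 (SE, adjusted p = 0.112). Ndufb7 had 73.0 ± 10.4 and 60.1 ± 4.86 RPKM (-0.27 ± 0.09, adjusted p = 0.141), and Ndufb5 82.8 ± 7.93 and 67.6 ± 14.7 RPKM (-0.31 ± 0.13, adjusted p = 0.232). The values of the genotypes overlapped for each of these 3.

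Ndufa4 was nearly level, from 394 to 534 RPKM in WT with a median of 482, and from 425 to 538 in Gcg KO with a median of 449 (log2 fold change -0.03 ± 0.09 SE, adjusted p = 0.923). Its paralogue Ndufa4l2, known as a hypoxia-induced gene, had the largest positive estimate of complex I (0.37 ± 0.20, adjusted p = 0.389). Ndufa4l2 ranged from 0.178 to 1.28 RPKM in WT and from 0.941 to 1.11 in Gcg KO, and rested on an estimated 2 to 15 reads per library.

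A pair of complex I subunits took separate high and low levels, with libraries of both genotypes at each level. Ndufa11 (Entrez 69875, chromosome 17, 56717762 to 56724248, plus strand), a membrane-arm subunit, was at 53.6 to 62.2 RPKM in WT 1, WT 2, WT 6 and Gcg KO 10 and at 9.57 to 11.9 RPKM in the other 8 libraries. In WT its lowest value was 9.57, its median 33.7 and its highest 62.2 RPKM, and in Gcg KO 9.79, 10.2 and 53.6. Its log2 fold change of -0.87 ± 0.58 (SE) did not pass (adjusted p = 0.532), and both genotypes held high and low libraries.

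Ndufs4 (Entrez 17993, chromosome 13, 114287795 to 114388094, minus strand), an accessory subunit of the NADH-oxidizing arm whose loss causes Leigh-like disease in mice, was at 24.4 to 32.9 RPKM in WT 6 and Gcg KO 7, 8, 11 and 12. It was at 57.2 to 73.4 RPKM in the other 7 libraries. In WT its lowest, median and highest values were 32.9, 66.2 and 73.4 RPKM, and in Gcg KO 24.4, 28.0 and 64.7. The high libraries were WT 1 to 5, Gcg KO 9 and Gcg KO 10, so the genotypes overlapped. The log2 fold change was -0.74 ± 0.27 (SE, adjusted p = 0.189). Without WT 6, Gcg KO 10 and Gcg KO 12 it was -1.05 (adjusted p = 0.0409), and Ndufs4 was the only member past the threshold in that comparison. Those libraries include the only low WT library, WT 6, and a high Gcg KO library, Gcg KO 10, beside the low Gcg KO 12. The pass thus depends on which libraries were left out and is no separate check of the difference. Gcg KO 9 remained at 60.0 RPKM.

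The high libraries of the pair were not the same set: WT 6 was high for Ndufa11 and low for Ndufs4, and WT 3, WT 4 and WT 5 the reverse. A gap of at least 0.5 on the log2 scale with at least 3 libraries on each side was found in 105 of 3963 genes of at least 10 RPKM (2.65%), and in 2 of the 75 members at that level. GENCODE lists 4 transcripts of 376 to 918 bases for Ndufa11 and 6 of 383 to 1698 bases for Ndufs4. The part of transcript choice in these levels was not tested.

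**Figure D3:**
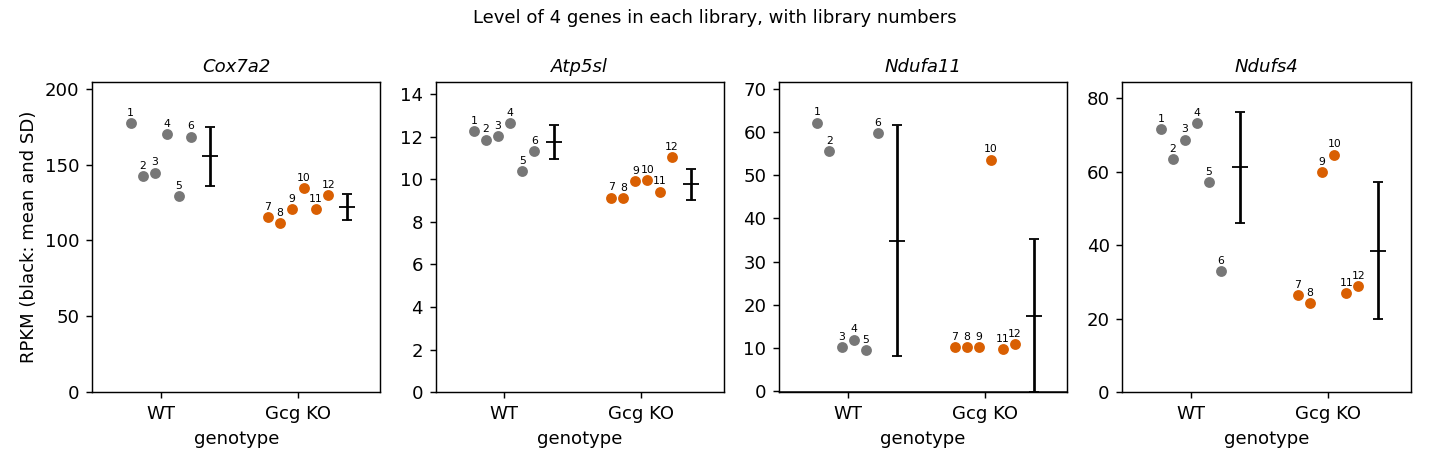
RPKM (vertical axis, linear) of Cox7a2, Atp5sl, Ndufa11 and Ndufs4 in each WT (grey) and Gcg KO (orange) library, labelled with its number, with the group mean and SD in black. Cox7a2 and Atp5sl are shifted down in Gcg KO with overlap at the edges, and Ndufa11 and Ndufs4 fall into 2 levels within both genotypes.

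In complex II, the enzyme shared with the citric acid cycle, 0 of 4 subunits passed and the median was -0.02. The iron-sulfur subunit Sdhb ranged from 121 to 156 RPKM in WT (median 139) and from 106 to 133 in Gcg KO (median 117), a log2 fold change of -0.23 ± 0.08 (SE, adjusted p = 0.139). WT 5 was the low WT library, and Gcg KO 10 and Gcg KO 12 were the high Gcg KO libraries. The flavoprotein subunit Sdha was at 168 ± 13.9 and 168 ± 10.9 RPKM (0.007 ± 0.07, adjusted p = 0.981). The membrane anchors Sdhc (98.1 ± 4.81 and 95.6 ± 7.59 RPKM) and Sdhd (104 ± 8.68 and 107 ± 11.5 RPKM) did not pass either (adjusted p = 0.836 and 0.889).

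In complex III, all 8 subunits had estimates below 0 (45.7% of all tested genes), with a median of -0.14, and 0 passed. Uqcrq, a small subunit and the most abundant of the complex, ranged from 344 to 491 RPKM in WT (median 385) and from 307 to 406 in Gcg KO (median 349), a log2 fold change of -0.20 ± 0.10 (SE, adjusted p = 0.380). Uqcr11, another small subunit, had the most negative estimate at -0.20 ± 0.15 (adjusted p = 0.595). It was highest in WT 1 and WT 4, at 292 and 272 RPKM, and lowest in WT 5, at 143 RPKM, so the WT libraries spanned all 6 Gcg KO values. The large core subunits Uqcrc1 and Uqcrc2 had -0.09 ± 0.05 and -0.04 ± 0.06, and the Rieske iron-sulfur protein Uqcrfs1 had -0.08 ± 0.07.

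In complex IV, Cox7a2 fell in Gcg KO livers. It encodes the widely expressed isoform of subunit VIIa (Entrez 12866, chromosome 9, 79755241 to 79771422, minus strand, GRCm38). It ranged from 129 to 178 RPKM in WT (median 157) and from 111 to 134 in Gcg KO (median 121). Gcg KO 7, 8, 9 and 11 lay below every WT library, while Gcg KO 10 and 12 were above WT 5. The means were 155 ± 19.3 and 122 ± 8.70 RPKM, a log2 fold change of -0.34 ± 0.08 (SE, adjusted p = 0.0388).

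The Cox7a2 call was close to the threshold, with adjusted p between 0.0156 and 0.0882 over 22 alternatives, of which 10 passed. It was lost without each of WT 1, WT 3, WT 4, WT 6 and Gcg KO 7, 8, 9, 11 and 12 (adjusted p 0.0529 to 0.0882), without the 3 libraries that stood apart (0.0759), without a mean-variance trend (0.0519) and without a filter on low values (0.0581). The RefSeq span of Cox7a2 overlaps Tmem30a on the same strand over 2482 bases. Tmem30a was at 49.3 ± 6.05 RPKM in WT against 56.1 ± 4.59 in Gcg KO (0.19 ± 0.08, adjusted p = 0.294), so its estimate had the opposite sign to that of Cox7a2.

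Neither expressed paralogue of Cox7a2 passed the test. Cox7a2l, which joins complexes III and IV into supercomplexes, had 60.1 ± 5.69 RPKM in WT against 61.6 ± 5.40 in Gcg KO (0.04 ± 0.08, adjusted p = 0.891), and its sign turned without WT 5. The muscle isoform Cox7a1 had 1.24 ± 0.282 and 1.26 ± 0.600 RPKM (-0.04 ± 0.20, adjusted p = 0.963). The difference between Cox7a2 and its paralogues was not tested. Of the other complex IV subunits, Cox5b ranged from 167 to 249 RPKM in WT (median 195) and from 156 to 181 in Gcg KO (median 167), an estimate of -0.24 ± 0.10 (adjusted p = 0.230). Cox4i1, the largest nuclear-encoded subunit, had -0.10 ± 0.08 (adjusted p = 0.602). The median of the 12 was -0.10, with 11 below 0 (45.7% of all tested genes).

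Among the 17 genes named for ATP synthase, 16 were below 0 (45.7% of all tested genes) and the median was -0.13. At an unadjusted p below 0.05, 9 were lower (background 6.96%), the most of any complex, with Atp5sl among them. Only Atp5sl fell at the adjusted threshold. RefSeq names it Dmac2 (Entrez 66349, chromosome 7, 25619414 to 25625550, plus strand), and it is known as an assembly factor of complex I, not as a subunit of ATP synthase. It ranged from 10.4 to 12.7 RPKM in WT (median 11.9) and from 9.11 to 11.03 in Gcg KO (median 9.67). Only Gcg KO 12 lay above the lowest WT library, WT 5. The means were 11.8 ± 0.797 and 9.76 ± 0.722 RPKM, a log2 fold change of -0.26 ± 0.07 (SE, adjusted p = 0.0454).

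Over 22 alternatives the adjusted p of Atp5sl lay between 0.0158 and 0.0988, and 10 passed. The call was lost without each of WT 1, 2, 3, 4 and 6 and Gcg KO 7, 8, 9, 10 and 11 (adjusted p 0.0629 to 0.0988), without the 3 libraries that stood apart (0.0508) and without a trend (0.0570).

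The 3 genes Atp5g1, Atp5g2 and Atp5g3 encode the same mature subunit c, the ring that turns as protons pass. Atp5g3 was the most abundant, at 394 ± 33.5 RPKM in WT against 349 ± 24.1 in Gcg KO (-0.17 ± 0.07, adjusted p = 0.236). Atp5g1 ranged from 141 to 181 RPKM in WT (median 162) and from 117 to 153 in Gcg KO (median 133), a log2 fold change of -0.27 ± 0.08 (SE, adjusted p = 0.0850). Gcg KO 10 and 12 lay among the WT values, and with median-ratio size factors Atp5g1 passed (-0.29, adjusted p = 0.0353). Atp5g2 had 101 ± 8.91 and 94.7 ± 9.07 RPKM (-0.10 ± 0.08, adjusted p = 0.629).

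In the catalytic head and stalk of ATP synthase 0 subunits passed. Atp5b, the catalytic beta subunit, ranged from 505 to 561 RPKM in WT (median 547) and from 468 to 542 in Gcg KO (median 486). Of the Gcg KO libraries, Gcg KO 10 and Gcg KO 12 lay above WT 5 and the other 4 below every WT library. Its means were 542 ± 20.5 and 496 ± 27.4 RPKM, a log2 fold change of -0.13 ± 0.06 (SE, adjusted p = 0.268). The stalk subunits Atp5d and Atp5e had estimates of -0.22 ± 0.07 (adjusted p = 0.111) and -0.28 ± 0.12 (adjusted p = 0.259), the latter the most negative of the complex.

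The median level of the members varied across libraries, within genotypes as well as between them. Single members could differ from it: Sdha, for example, was lowest in WT 1, at 149 RPKM. Agreement between members was not tested. As the median deviation from each gene's mean over the 12 libraries, on the log2 scale, the 78 members stood at 0.19 in WT 1, 0.15 in WT 4, 0.11 in WT 6, 0.05 in WT 2, 0.01 in WT 3 and -0.13 in WT 5. In Gcg KO they stood at -0.14 in library 7, -0.12 in 8, -0.12 in 9, -0.11 in 11, 0.06 in 12 and 0.11 in 10. WT 5 thus lay with the low Gcg KO libraries, and Gcg KO 10 and 12 lay with the WT libraries. Complexes I, III, IV and V were each highest in WT 1 and WT 4 and below 0 in WT 5 and Gcg KO 7, 8, 9 and 11. Complex II differed in WT 1 and WT 4, where it stood at 0.008 and -0.05 while the members as a whole were high.

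Transcript length and another class of abundant short transcripts were measured beside this pattern. The length of a gene was the median over all its GENCODE transcripts. By this measure members are short, with a median of 617.5 bases against 1357.5 for all tested genes. Among the other tested genes the median log2 fold change was 0.004 for transcripts up to 1 kb, 0.01 at 1 to 2 kb, 0.03 at 2 to 4 kb and 0.04 above 4 kb. The 71 members with transcripts up to 1 kb had a median of -0.10 and the 7 longer members -0.11. Within libraries, the median deviation of the other tested genes differed between transcripts up to 1 kb and above 4 kb. The values were 0.05 and -0.11 in WT 1, -0.03 and -0.09 in WT 4, and -0.07 and -0.01 in WT 5. They were -0.02 and 0.03 in Gcg KO 7 and -0.05 and -0.08 in Gcg KO 11. Gcg KO 10 had 0.06 and 0.07, and Gcg KO 12 had 0.10 and 0.12. The part of length in the members' levels was not tested. Sdha, with transcripts of 198 to 2900 bases, counted as short, and Ndufb7, with 623 and 4435 bases, as longer. The comparison cannot tell which transcript of a gene was in use. Cytosolic ribosomal proteins, which are also short and abundant, had the same high libraries WT 1 (0.24) and WT 4 (0.17) and the same low library WT 5 (-0.22), with a median log2 fold change of -0.01 between genotypes. The part of library makeup in the members' levels was not tested.

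**Figure D4:**
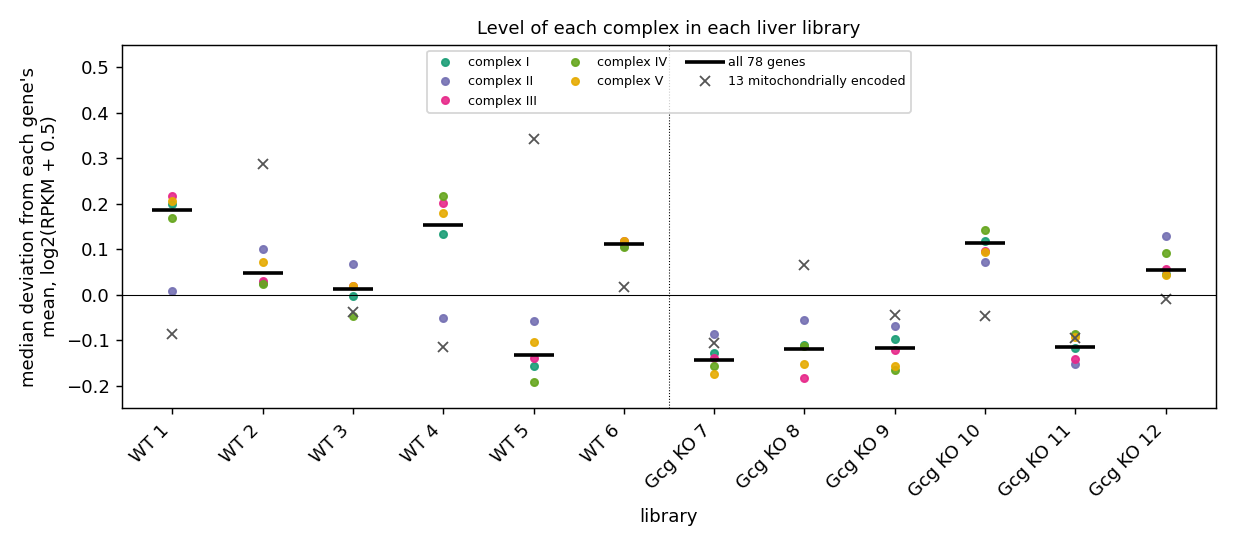
Median deviation of the members of each complex from each gene's mean of log2(RPKM + 0.5), in each library (coloured points), with all 78 members as a black bar and the 13 mitochondrially encoded subunits as a cross. WT 5 sits at -0.13 with Gcg KO 7, 8, 9 and 11, Gcg KO 10 and 12 sit above 0, and the crosses are highest in WT 2 and WT 5.

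The 13 mitochondrially encoded subunits, which join the nuclear ones in complexes I, III, IV and V, followed other libraries. They were highest in WT 5 (0.34) and WT 2 (0.29), where the nuclear members were at -0.13 and 0.05. Of these 13 genes 0 passed the test and 12 were below 0 (45.7% of all tested genes). Their median log2 fold change was -0.10, as for the nuclear members. They held 17.6 ± 2.41% of the summed RPKM in WT and 16.6 ± 0.659% in Gcg KO, while the 78 nuclear members held 1.92 ± 0.146% and 1.76 ± 0.134%.

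Genes that assemble or feed the chain held calls in both directions, against a background of 1.95% of all tested genes higher and 1.92% lower. Of 14 complex I, 10 complex II and III, and 5 ATP synthase assembly genes, 0 passed. Of 21 complex IV assembly factors tested, Cox19, a twin-cysteine protein of the intermembrane space, rose from 23.4 ± 2.43 to 33.4 ± 2.68 RPKM (0.51 ± 0.08, adjusted p = 0.00173). Cox18, which inserts a mitochondrially encoded subunit into the membrane, rose from 5.42 ± 0.302 to 7.01 ± 0.306 RPKM (0.34 ± 0.06, adjusted p = 0.00375). Cox11, a copper chaperone, fell from 4.55 ± 0.325 to 3.48 ± 0.384 RPKM (-0.35 ± 0.08, adjusted p = 0.0210).

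For Cox19 and Cox18 all 6 Gcg KO values were above all WT values, and for Cox11 all were below. Each of the 3 passed in all 22 alternatives. The other 18 complex IV assembly factors did not pass.

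Among 10 electron carriers and related genes outside the name rule, Coq10a, a ubiquinone-binding protein, fell from 7.39 ± 0.703 to 5.57 ± 0.341 RPKM (-0.38 ± 0.07, adjusted p = 0.00746) and passed in all 22 alternatives. Cytochrome c1, Cyc1, had 117 ± 4.48 and 106 ± 7.31 RPKM (-0.14 ± 0.06, adjusted p = 0.218). Cytochrome c, Cycs, was at 129 RPKM in Gcg KO 12 and between 51.8 and 69.9 in the other 11 libraries. Etfb, a subunit of the flavoprotein that passes electrons from fatty acid oxidation, had 219 ± 18.1 and 179 ± 16.3 RPKM (-0.29 ± 0.08, adjusted p = 0.0509).

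Of 18 citric acid cycle enzymes 3 fell and 0 rose (background 1.92% lower and 1.95% higher), and for Mdh2 and Idh2 the call was lost in most alternatives. Fh1, fumarase, fell from 101 ± 10.6 to 59.0 ± 3.94 RPKM (-0.77 ± 0.07, adjusted p = 5.73e-05) with no overlap between genotypes, and passed in all 22 alternatives. It acts on the fumarate that complex II makes. Mdh2 fell from 117 ± 5.47 to 99.6 ± 6.81 RPKM (-0.23 ± 0.06, adjusted p = 0.0415) and Idh2 from 47.2 ± 6.90 to 34.2 ± 5.76 (-0.46 ± 0.12, adjusted p = 0.0449).

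Mdh2 passed in 9 of 22 alternatives and Idh2 in 10. The Mdh2 call was lost without each of WT 1, 2, 3, 4 and 6 and Gcg KO 7 to 11, without the 3 libraries that stood apart, with quantile normalization and without a trend (adjusted p up to 0.101). The Idh2 call was lost without each of WT 2 to 6 and Gcg KO 7 to 11, without a filter on low values and without a trend (up to 0.105).

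Ucp2, an inner-membrane carrier of the uncoupling protein family, rose from 10.8 ± 1.59 to 23.8 ± 8.20 RPKM (1.04 ± 0.19, adjusted p = 0.00765), the only one of 9 carriers and porins to pass, and did so in all 22 alternatives. Every Gcg KO library was above every WT library. Hspa9, the mitochondrial Hsp70, was the only one of 21 import and cristae genes to pass, falling from 169 ± 7.49 to 143 ± 8.20 RPKM (-0.24 ± 0.05, adjusted p = 0.0271). Txn2, mitochondrial thioredoxin, fell from 81.1 ± 5.67 to 68.2 ± 3.44 RPKM (-0.25 ± 0.06, adjusted p = 0.0326), of 8 genes of peroxide and superoxide removal.

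Hspa9 and Txn2 each passed in 13 of 22 alternatives. The Hspa9 call was lost without WT 2, 3 or 6 or Gcg KO 7, 8, 9 or 10, without the 3 libraries that stood apart and with quantile normalization (adjusted p up to 0.137). The Txn2 call was lost without WT 1, 3, 4 or 6 or Gcg KO 7, 8 or 9 as well as without those 3 libraries and without a trend (adjusted p up to 0.0875).

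Of 18 regulators of mitochondrial gene expression and 10 genes of ubiquinone synthesis, 0 passed. Ppargc1a, a coactivator of mitochondrial genes that glucagon signalling induces in fasting, ranged from 1.25 to 5.09 RPKM in WT and from 0.664 to 2.27 in Gcg KO (-1.01 ± 0.28, adjusted p = 0.0638). The mitochondrial ribosomal proteins had a median of -0.06, with 2 of 77 lower (Mrps31 and Mrpl14). Each passed in 15 of 22 alternatives; Mrps31 was lost without WT 1, 2, 3 or 6 or Gcg KO 7, 8 or 11 and Mrpl14 without WT 1, 3, 4 or 6 or Gcg KO 7, 8 or 9 (adjusted p up to 0.0724). Their median was thus below the 0.01 of all tested genes and above the -0.10 of the members.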

How the data were processed

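Polyadenylated RNA of 12 mouse liver samples, 6 WT and 6 Gcg KO, was sequenced. The authors deposited RPKM values for 24475 genes in 12 columns, each matched to its sample by the number in the labels. CASAVA 1.8.2, FastQC and GRCm38 are listed, per the submitters' processing notes. The aligner, the counter, the annotation and the handling of reads shared between genes: not given in the sources used here. Members with close copies, such as processed pseudogenes, are uncertain to that extent. Depths are estimates from the lowest nonzero steps of the RPKM values.

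From these values, log2(RPKM + 0.5) of genes with a mean of at least 0.5 RPKM was compared between genotypes with limma 3.58.1 under R 4.3.3. The moderated test was two-sided, used a mean-variance trend and had genotype as its only term. Its p-values were adjusted by Benjamini and Hochberg's method across the 11347 genes, and 0.05 was the threshold. Fold changes on that scale understate those of low genes. The procedure was tested on simulated data. Positions are from RefSeq and transcript lengths from GENCODE vM21, both GRCm38. The fit was repeated with other pseudocounts, filters, scalings, variance models and weights, without each library and without WT 6, Gcg KO 10 and Gcg KO 12.

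The members and the gene lists were chosen with earlier results of these data known. Named members were those past the threshold or without overlap, the highest and most changed of each complex, the Sdh genes and the paralogue sets; of the other lists, genes past the threshold were named. Ndufs4, Ndufb5, Ndufb7, Ndufb10, Cox5b, Atp5d, core subunits of complexes I and III, Cyc1, Cycs, Etfb, Ppargc1a and the motif factors were named after their values were seen. The values of 1 member are not reported here.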

Additional observations from a re-analysis of the deposited data

Results flagged for a closer look

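Among the 50 groups of 6 values tested (25 members in each genotype), 2 held a value far from the other 5 by Dixon's criterion, which chance meets in about 1 of 20 groups. Ndufa11 in Gcg KO 10 stood at 53.6 RPKM, where the next highest Gcg KO library had 10.9 RPKM. Atp5s in WT 2 stood at 2.82 RPKM, where the next highest WT library had 1.99 RPKM.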

How the results depend on the processing

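No paired analysis was possible because the groups share no replicate numbers. Of 11347 tested genes, 439 passed; leaving out 1 library gave 280 to 472, with 136 to 262 higher and 144 to 210 lower, the fewest without WT 3. Without WT 6, Gcg KO 10 and Gcg KO 12, 131 genes were higher. The number of members past the threshold, all lower, was 0 without a trend, 1 without a filter on low values, 1 without those 3 libraries and 0 to 2 without 1 library. The members' median kept its sign in all 22 alternatives, from -0.15 to -0.08 without 1 library. With quantile normalization 18 members were above 0, against 7; of the members that the naming rule selects, Cox8a (0.013), Ndufa4 (0.033) and Uqcrc2 (0.016) turned positive. Sdha turned to -0.012 with median-ratio size factors and -0.015 with array weights, and Atp5s to -0.075 with array weights. Without the 3 libraries 1 member was above 0: Atp5s (-0.16), Cox7a2l (-0.016), Sdha (-0.020), Sdhd (-0.021), Ndufb3 (-0.03) and Ndufb6 (-0.02) turned negative. Without 1 library, Atp5s ranged from -0.084 to 0.13, Cox7a1 from -0.17 to 0.079, Cox7a2l from -0.011 to 0.075, Ndufa4 from -0.088 to 5.43e-05, and Sdha from -0.026 to 0.041. None of these sign changes involved a value past the threshold. Their cause was not tested. Ndufa4l2, Cox7a1, Atp5s, Ndufa11 and Atp5sl had fewer than 100 estimated reads in at least 1 library, which limits their precision.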
